A study of Homo sapiens with 30 samples.

Results

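The HOX cluster genes were examined in G401 cells, an established line from a malignant rhabdoid tumor of the kidney that makes no SNF5, a subunit of the chromatin remodeling complex SWI/SNF. The members were the 38 protein-coding genes named HOXA, HOXB, HOXC or HOXD on a fixed symbol list, and 34 of them were found among the 20367 gene symbols of the PRO-Seq table. HOXA10, HOXC5, HOXC6 and HOXD12 had no row of their own there. All cells carried a TET-inducible lentiviral construct, were selected with G418 as a transduced population, and received 1 µg/ml doxycycline for 24 h to induce EGFP (the control), OmoMYC (a dominant-negative form of MYC) or SNF5. PRO-Seq and ATAC-Seq were each made from 3 samples per construct and MYC ChIP-Seq from 2. The control cells thus share the absence of endogenous SNF5, the drug and the viral vector with the other constructs. The replicates are samples that the labels number separately. In the PRO-Seq tests replicate number was a block. The p-values of those tests measure the spread left between samples once shifts shared by a replicate number are removed.

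HOX genes encode homeodomain transcription factors that tell cells where they lie along the body axis. In mammals they sit in 4 clusters, are transcribed in the same direction within a cluster, and low-numbered genes act toward the head and high-numbered genes toward the tail. Polycomb complexes keep the clusters silent and Trithorax-type factors keep them active, and SWI/SNF remodeling is known to oppose Polycomb. The HOX11 paralogs are known for their part in kidney development.

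PRO-Seq maps engaged RNA polymerase at base resolution. For each gene it gave reads in a promoter-proximal window (50 bp wide, placed where reads are densest near the start) and in the gene body (from 1000 bp past the start to the gene end). Total gene body reads ran from 28388012 to 46859674 per sample and promoter-proximal reads from 517821 to 3381189, lowest in the 3 samples of replicate 1 (1.49% to 2.01% of gene body reads, against 4.40% to 11.5% in replicates 2 and 3). SMARCB1, which encodes SNF5, had 4, 1 and 6 gene body reads in the EGFP samples, 2, 5 and 4 in the OmoMYC samples and 2870, 4467 and 3440 in the SNF5 samples. This gene sets the SNF5 samples apart and does not tell EGFP from OmoMYC samples. VIM was at 6423 to 16148 reads in all 9 samples, while among blood and endothelial markers HBB and PECAM1 had no read, PTPRC at most 1, KDR at most 7 and CD3E at most 9 in a sample. CDH5 (6, 44 and 37 reads in EGFP and 27, 129 and 75 in SNF5) and SPI1 (18 to 141 reads) were above that. Of 5 kidney epithelial markers, 4 could be tested in SNF5 against EGFP, where PAX8 and CDH1 rose and PAX2 and LHX1 fell, and their part in the HOX values was not tested.

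Across the clusters, transcription in EGFP cells ran from HOXA9, at the 99.4 percentile of all genes, to HOXD11 with no read. Levels are given as gene body density, the gene body reads per kb and per 1000000 scaled reads, which can be compared between genes. The median over all genes was 0.504, and 26 of the 34 members lay above it (8 of 9 in HOXA, 9 of 10 in HOXB, 6 of 7 in HOXC and 3 of 8 in HOXD). HOXC had the highest median over its members, 8.58, followed by HOXA at 1.78 and HOXB at 1.29. HOXD had the lowest, 0.130.

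**Figure D1:**
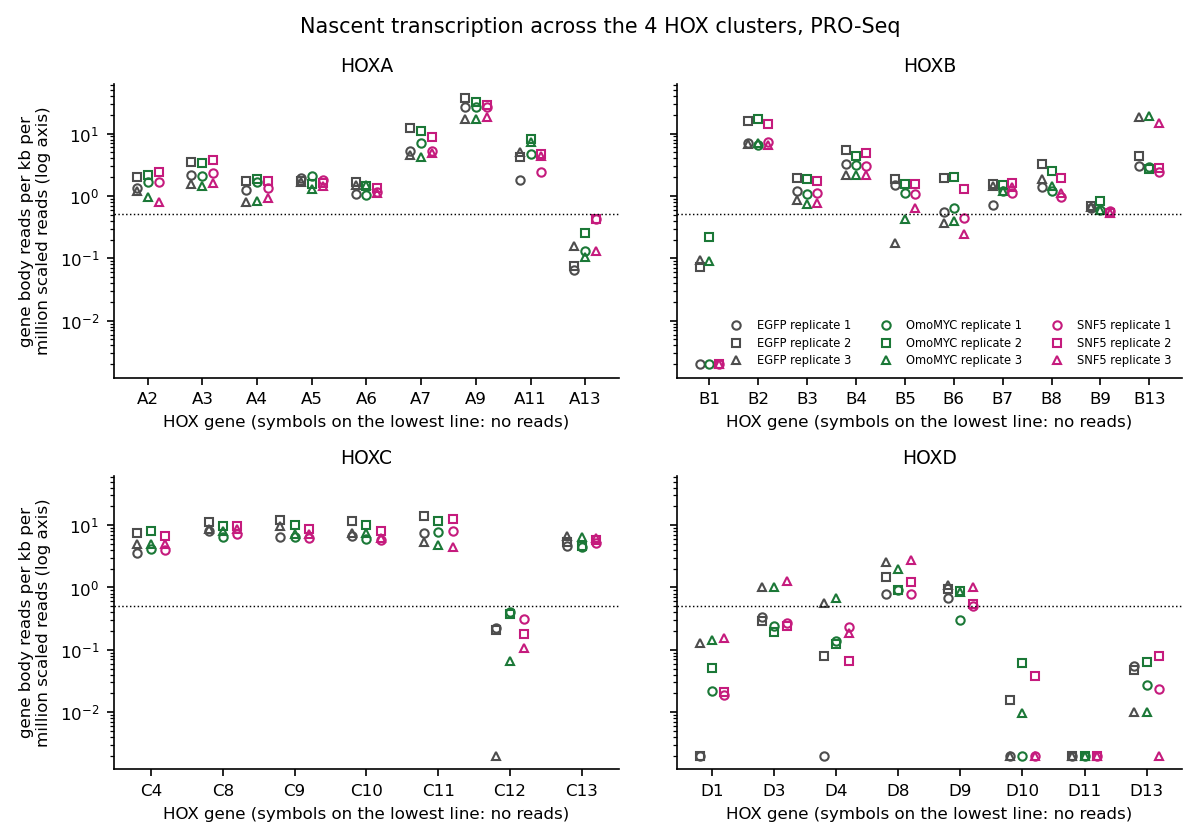
Gene body density (reads per kb and per 1000000 scaled reads, log axis) of the 34 members in each of the 9 PRO-Seq samples, by cluster, with genes in number order; color gives the construct, symbol shape the replicate, the dotted line the median of all genes, and points on the lowest line had no reads. HOXA9 has the highest mean, HOXB13 lies slightly above it in replicate 3 of EGFP and OmoMYC, HOXD10 to HOXD13 lie at or near 0, and replicate 3 (triangles) stands apart at HOXB13, HOXB5, HOXD3 and HOXD8.

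In HOXA the means of HOXA2 to HOXA6 were lower than those of HOXA7, HOXA9 and HOXA11. HOXA9, a factor best known for its role in blood progenitors and leukemia, had the highest mean density of any member, at 26.2, 37.5 and 17.2 in EGFP replicates 1, 2 and 3 (mean 26.99 ± 10.1, SD, n = 3). In replicate 3 alone HOXB13 was above it, at 18.4. The value in replicate 2 was the highest and that in replicate 3 the lowest under every construct. A readthrough transcript that joins HOXA10 to HOXA9 is listed on the same strand and overlaps it, so some HOXA9 reads may belong to polymerase that started at HOXA10. From HOXA6 (1.42 ± 0.32) to HOXA7 (7.32 ± 4.30) density rose 5.15-fold and from HOXA7 to HOXA9 another 3.69-fold, with no overlap between the 3 values of each pair. The steepest step of the cluster was between HOXA11 (3.68 ± 1.66) and HOXA13 (0.0985 ± 0.0494), a 37.3-fold fall with no overlap. HOXA2, HOXA3, HOXA4, HOXA5 and HOXA6 ran from 1.26 to 2.38, and the values of each neighbor in that row overlapped the next. HOXA9 also had the most promoter-proximal reads of the cluster, with 94, 398 and 147 in EGFP.

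In HOXB the most active member was HOXB2, a hindbrain patterning gene, with a density of 7.16, 16.2 and 6.76 in EGFP. Its neighbor HOXB1 had 0, 1 and 2 reads, which made the step between them the largest of the cluster (182-fold on the means). HOXB13, the most posterior gene of the cluster and a prostate lineage factor, followed at 3.04, 4.33 and 18.4. Replicate 3 alone carried the high HOXB13 values, and the same was seen in OmoMYC (2.94, 2.73 and 19.2) and SNF5 (2.41, 2.79 and 14.7). The genes between, HOXB3 to HOXB9, ran from 0.661 for HOXB9 to 3.64 for HOXB4. HOXB7 had the most promoter-proximal reads of the cluster (24, 191 and 83 in EGFP).

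In HOXC the densities of HOXC8, HOXC9, HOXC10 and HOXC11 lay between 8.58 and 9.36, and the values of neighbors overlapped. HOXC9 was the highest at 6.52, 12.0 and 9.53. HOXC4 (5.36 ± 1.97) and HOXC13 (5.58 ± 0.98) were lower. HOXC12 was nearly silent between active neighbors, with 5, 4 and 0 reads in EGFP, a density 60.7-fold below HOXC11 and 38.2-fold below HOXC13. The HOXC4 transcript in the table spans 38173 bp of gene body and runs across HOXC5 and HOXC6, so their transcription is counted with it. HOXC4 had the most promoter-proximal reads of the cluster, with 86, 193 and 122 in EGFP.

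In HOXD the members HOXD3, HOXD8 and HOXD9 carried most of the reads. HOXD8 was highest, at 0.793, 1.48 and 2.54 in EGFP. HOXD9 (0.907 ± 0.208) lay beside HOXD10 (0.0051 ± 0.0089), which had a single read over the 3 EGFP samples, and this 176-fold step was the largest of the cluster between genes with reads. HOXD11, a kidney and limb patterning gene, had no gene body read in any of the 9 samples. For EGFP that count allows a density of up to 0.0220 (3 reads over the 3 samples, counting error only). HOXD13 had 4, 3 and 1 reads, and HOXD9 had the most promoter-proximal reads of the cluster (7, 43 and 81).

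With SNF5, 5 HOXB and HOXC genes were called lower, a share close to that of all genes. Of the 34 members, 27 had a mean of at least 10 gene body reads and were tested, and 5 of them fell in SNF5 against EGFP while none rose (edgeR's quasi-likelihood test with replicate as a block, Benjamini-Hochberg adjusted p under 0.05 over 15060 genes). Those 5 are 18.5% of the members tested, close to the 16.5% of all genes that were called lower. Another 17.6% of all genes were called higher, which makes a background of 34.1% in either direction. The 7 members below the limit were HOXB1, HOXC12, HOXD1, HOXD4, HOXD10, HOXD11 and HOXD13. The median log2 fold change was -0.10 over the members and -0.03 over all genes. DESeq2 called 5 members as well, and 6 had an unadjusted p under 0.05 by edgeR, in either direction. In bulk nuclei, fewer cells that transcribe a gene and less transcription per cell cannot be told apart.

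HOXB8 had densities of 1.41, 3.31 and 1.88 in EGFP and 0.978, 1.95 and 1.13 in SNF5. SNF5 was lower in all 3 replicates, and the groups overlapped, with replicate 2 the highest in both. The fall was 0.68 on the log2 scale (SE 0.17, adjusted p = 0.0162), to 0.623 of the EGFP level. HOXB6, its neighbor but one, had densities of 0.554, 1.95 and 0.375 in EGFP and 0.445, 1.30 and 0.243 in SNF5. It too was lower in every replicate with overlapping groups, and fell by 0.51 on the log2 scale (SE 0.13, adjusted p = 0.0161). HOXB13 went from 3.04, 4.33 and 18.4 to 2.41, 2.79 and 14.7, a fall of 0.43 on the log2 scale (SE 0.13, adjusted p = 0.0302). In HOXC, HOXC10 went from 6.71, 11.5 and 7.56 to 5.72, 7.95 and 6.27, which was lower in each replicate. HOXC10 fell by 0.34 on the log2 scale (SE 0.08, adjusted p = 0.0117). HOXC9 went from 6.52, 12.0 and 9.53 to 6.25, 8.79 and 7.15, a fall of 0.31 on the log2 scale (SE 0.10, adjusted p = 0.0437). Both HOXC genes are posterior factors of the trunk and limb. Each of the 5 genes was lower in 3 of 3 replicates, and for none of them were the EGFP and SNF5 ranges separate. HOXA5, HOXB3, HOXB4, HOXB9 and HOXD9 were also lower in 3 of 3 and were not called. HOXB9 was the only member with separate ranges (0.661 ± 0.030 in EGFP and 0.551 ± 0.024 in SNF5). HOXA3 and the untested HOXD1 were higher in 3 of 3. The share of all genes with such patterns was not counted.

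The calls changed with the replicates included. Without replicate 1 of every construct edgeR called none, and likewise without replicate 2, while without replicate 3 the count rose to 9 (HOXA3 and HOXA13 higher and HOXA9, HOXB6, HOXB8, HOXB13, HOXC8, HOXC9 and HOXC10 lower). Calls over all genes moved the same way, to 11.0%, 9.56% and 56.8%. With only the EGFP and SNF5 samples in the fit, HOXB13 and HOXC10 were called, where 24.5% of all genes were. Without the replicate block no member was called, and 1.49% of all genes were.

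HOXA13, which patterns the distal limb and the genital tract, had the largest log2 difference of any member, but it did not pass. It had 5, 5 and 16 gene body reads in EGFP and 38, 34 and 13 in SNF5. Replicates 1 and 2 were higher with SNF5 and replicate 3 was not. The log2 fold change was 1.51 (SE 0.57, adjusted p = 0.0686) with a 95% interval of 0.22 to 2.80. Without replicate 3 it was 2.57 with an adjusted p of 0.000739, and over the 8 alternatives the adjusted p ran from 0.000739 to 0.419. Of the other members that did not pass in SNF5, HOXA9 was at -0.10 with a 95% interval of -0.30 to 0.11, HOXB2 at -0.06 (-0.30 to 0.19) and HOXC13 at 0.03 (-0.16 to 0.22).

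**Figure D2:**
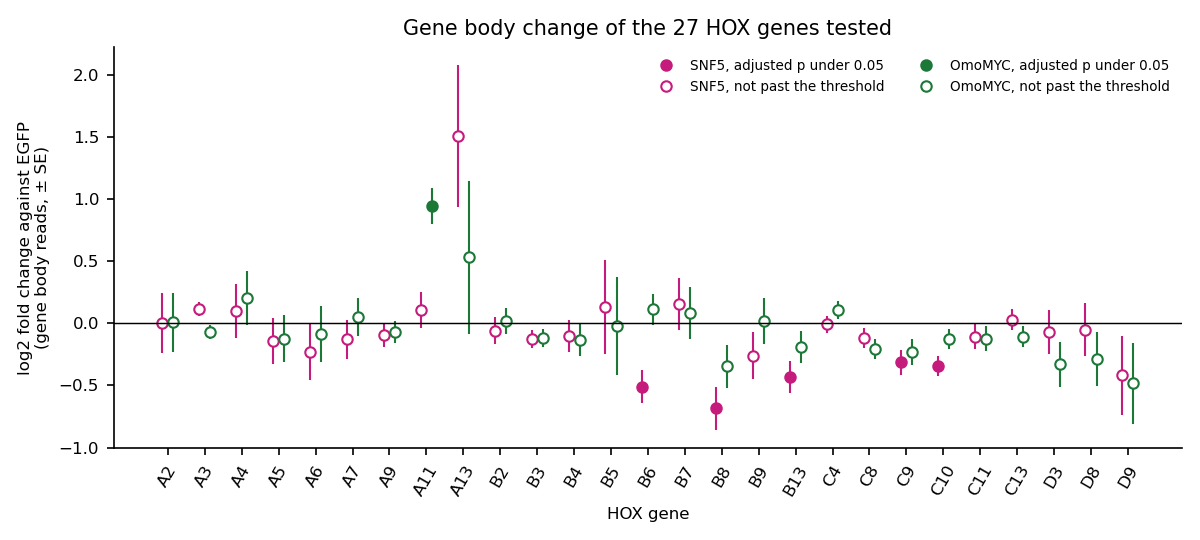
Log2 fold change against EGFP of gene body reads, ± SE from edgeR's fit, for the 27 members tested in SNF5 (magenta) and OmoMYC (green), in cluster order; filled points passed the adjusted p of 0.05. The 5 filled SNF5 points are HOXB6, HOXB8, HOXB13, HOXC9 and HOXC10, all below 0, the 1 filled OmoMYC point is HOXA11, and HOXA13 has the widest error bars.

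With OmoMYC, transcription of HOXA11 was higher, and no other member passed. HOXA11 had densities of 1.81, 4.21 and 5.01 in EGFP and 4.75, 8.27 and 7.33 in OmoMYC. Every OmoMYC sample was above the EGFP sample of its replicate, and the groups overlapped since the OmoMYC value in replicate 1 was lower than that of EGFP in replicate 3. The log2 fold change was 0.95 (SE 0.15, adjusted p = 0.0168), or 1.93-fold. This 1 of 27 members (3.70%) compares with a background of 8.53% of all genes called by edgeR (4.1% higher), and DESeq2 also called 1. At an unadjusted p under 0.05 edgeR had 2 members. HOXA11 was not called without replicate 1 (log2 fold change 0.75, adjusted p = 0.443) or without replicate 2 (0.95, adjusted p = 0.409), where 0.0132% and 0.0134% of all genes were called. It was not called without the replicate block either (0.88, adjusted p = 0.832). Without replicate 3, HOXA11 and HOXC4 were higher and HOXB13 and HOXC8 lower, with 45% of all genes called. The SNF5 and OmoMYC comparisons share the EGFP samples.

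Compared with each other, SNF5 and OmoMYC differed at 3 members, against a background of 18.9% of all genes. HOXA11 had densities of 2.43, 4.72 and 4.45 in SNF5, near those of EGFP and below the OmoMYC sample of the same replicate in every case. The difference was -0.84 on the log2 scale (SE 0.14, adjusted p = 0.00468). HOXB6 was 0.445, 1.30 and 0.243 in SNF5 and 0.649, 2.00 and 0.399 in OmoMYC, a difference of -0.62 (SE 0.13, adjusted p = 0.0109). HOXA3 was 2.37, 3.78 and 1.64 in SNF5 and 2.06, 3.34 and 1.43 in OmoMYC, a difference of 0.19 (SE 0.06, adjusted p = 0.0458) that DESeq2 did not call (adjusted p = 0.0709, from 0.0109 to 0.999 over the alternatives). HOXB8, HOXB13, HOXC9 and HOXC10, which passed in SNF5 against EGFP, did not pass here. Without replicate 1 only HOXA11 was called, without replicate 2 none was, and without replicate 3 the count was 8. Calls over all genes were then 5.49%, 5.01% and 41.7%.

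**Figure D3:**
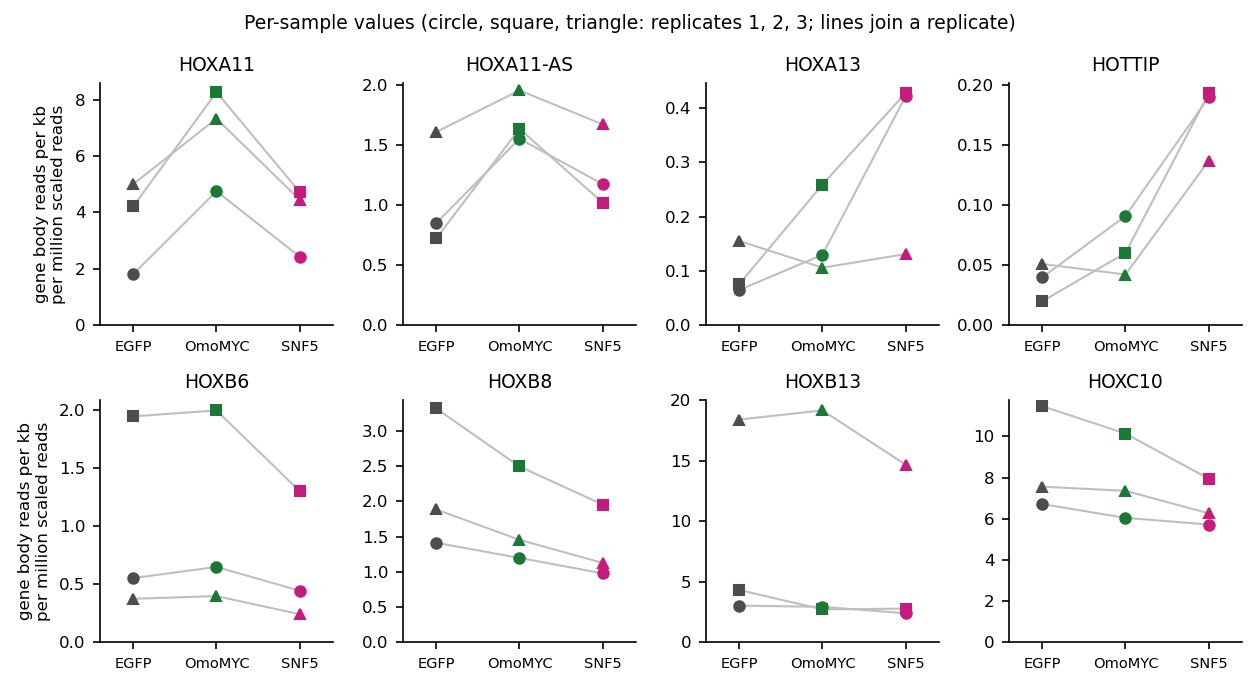
Gene body density in each PRO-Seq sample for 6 members and the non-coding RNAs HOXA11-AS and HOTTIP, from 0 upward; circles, squares and triangles are replicates 1, 2 and 3, and gray lines join the samples of a replicate. HOXA11 and HOXA11-AS peak in OmoMYC in all 3 replicates, HOTTIP is above EGFP in all 3 SNF5 samples, and the lines of HOXB6, HOXB8, HOXB13 and HOXC10 end below their EGFP point.

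All 9 non-coding RNAs of the clusters that were measured could be tested. In SNF5 2 of them were called and in OmoMYC 1, where 34.1% and 8.53% of all genes were. In SNF5 HOTTIP, transcribed away from HOXA13 at the end of the cluster and known to help keep distal HOXA genes active, went from 7, 3 and 12 reads to 39, 35 and 31. These ranges did not overlap on the density scale, and the share of all genes with separate ranges was not counted. The log2 fold change of HOTTIP was 2.13 (SE 0.43, adjusted p = 0.00583). HOTTIP was also above OmoMYC (1.45, SE 0.40, adjusted p = 0.0336). HOTAIRM1, at the other end of HOXA, had densities of 2.91, 4.33 and 3.01 in EGFP and 4.17, 4.96 and 3.90 in SNF5, a rise of 0.36 (SE 0.11, adjusted p = 0.0308). In OmoMYC HOXB-AS3, which lies opposite HOXB5 and HOXB6, rose by 0.40 (SE 0.10, adjusted p = 0.0472). HOXA11-AS, read from the strand opposite HOXA11 and listed in the table as HOXA-AS5, was at 0.850, 0.723 and 1.61 in EGFP and 1.55, 1.64 and 1.96 in OmoMYC. It was higher in each replicate and lay just outside the threshold (log2 fold change 0.75, SE 0.20, adjusted p = 0.0502). The other 5, among them HOTAIR in the HOXC cluster, passed in no comparison with EGFP.

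At the start of the genes no member passed in any comparison. Promoter-proximal reads were tested for 22 members over 11241 genes. By edgeR 0 members were called in SNF5 against EGFP, where the background was 4.27%. The counts were also 0 in OmoMYC against EGFP (background 1.8%) and in SNF5 against OmoMYC (0.827%). At an unadjusted p under 0.05 there were 3, 2 and 3 members, and DESeq2 called 0 in each. The lowest adjusted p was that of HOXA11, with 23, 264 and 160 reads in OmoMYC against 19, 170 and 67 in SNF5 (log2 difference -0.92, SE 0.24, adjusted p = 0.0545). HOXB7 had 0.693, 6.43 and 1.79 promoter-proximal reads per 1000000 scaled reads in EGFP and 0.470, 3.51 and 1.23 in SNF5, lower in each replicate (log2 difference -0.69, SE 0.24, adjusted p = 0.0864). HOXB7 passed when scaling used promoter-proximal totals, where 8.83% of all genes were called. That choice shifts this comparison by 0.0054 on the log2 scale for all genes and OmoMYC against EGFP by 0.18.

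The pausing index, the reads per bp of the promoter-proximal window over those of the gene body, was 42.7 for HOXB7 in the pooled EGFP reads, 25.6 for HOXD9, 22.2 for HOXB9 and 15.5 for HOXA11. These values moved with the replicate, at 19.1, 81.3 and 24.6 for HOXB7, 5.95, 30.3 and 32.2 for HOXD9, 3.64, 48.5 and 17.8 for HOXB9 and 5.10, 25.4 and 12.9 for HOXA11, and replicate 1, which has the fewest promoter-proximal reads, was the lowest for each. The pooled index was 2.31 for HOXB2, 2.19 for HOXB13, 2.01 for HOXA3 and 1.27 for HOXB6. HOXB6 had 6 promoter-proximal reads over the EGFP samples beside 777 in its gene body, and HOXA3 had 25 beside 4931, at the starts of the transcripts listed for them. The index itself was tested in 22 members over 11171 genes by edgeR, and 0 were called in SNF5 against EGFP (background 3.66%, 4 members at an unadjusted p under 0.05), in OmoMYC against EGFP (2.26%, 2 members) and in SNF5 against OmoMYC (1.23%, 1 member). HOXD9 in OmoMYC had the lowest adjusted p, with a log2 difference of 1.17 (SE 0.39, adjusted p = 0.0929).

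HOX levels also differed between replicates. A comparison of replicate 3 with replicates 1 and 2 over all constructs was added after seeing the data, and edgeR called 16 of the 27 members, 5 higher and 11 lower, against a background of 50.7% of all genes. The test took the samples that share a number as separate, though they move together, so its calls describe these samples only. HOXB13 was 5.77-fold higher in replicate 3, HOXD3 4.22-fold and HOXD8 2.39-fold. HOXB5 was at 0.287 and HOXB6 at 0.344 of the level in the other replicates. PAX2 moved with replicate 3 as well (877, 732 and 7823 reads in EGFP), and its part in the HOX values was not tested. HOXD3 had 95, 68 and 383 reads in EGFP, 68, 46 and 374 in OmoMYC and 88, 68 and 449 in SNF5, so that replicate 3 was high under each construct. In all, 6 members differed by more than 2-fold in this comparison, and 13.3% of all genes did. The labels do not say what the replicate number stands for.

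ATAC-Seq marks open chromatin through cuts by the Tn5 transposase. The clusters, with 5 kb on each side, held 25 sites where at least 1 sample had a peak, of 40005 over the genome: 11 in HOXA, 4 in HOXB, 3 in HOXC and 7 in HOXD. Only 2 sites had a peak in all 9 samples. The site at HOXA4 (GRCh38 chr7:27130727-27131268) had its summit at -166 bp from the start (negative is upstream), inside an intron of the longer HOXA3 transcript, and a fold enrichment of 5.39, 7.08 and 6.51 in EGFP, 6.21, 9.29 and 6.61 in OmoMYC and 7.57, 5.98 and 6.38 in SNF5. The site at HOXC13 (chr12:53938387-53938955) reached across the start, with its summit upstream at -202 bp, and had values from 5.80 to 8.29. A HOXD site (chr2:176140485-176141070) in an interval annotated as intergenic, with its summit at -10904 bp from the HOXD4 start, had a peak in 8 samples and none in OmoMYC replicate 1.

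ATAC-Seq peaks were called at few HOX starts. A summit lay within 1 kb of the start in at least 2 of 3 EGFP samples for 2 of the 38 members (5.26%), HOXA4 and HOXC13, against a background of 41.1% of 19869 protein-coding genes. In OmoMYC there were 3, with HOXA13 (background 39.6%), and in SNF5 6, with HOXA13, HOXC10, HOXD8 and HOXD9 (51.3%). The same count was made, after seeing the data, for genes in the top 10% of EGFP gene body density. In EGFP 1 of the 10 members there, HOXC13, had a summit, while 67.5% of the 1726 genes did. In OmoMYC it was again HOXC13 alone (64.4%), and in SNF5 HOXC13 and HOXC10 (81.5%). With these starts, HOXA9, HOXA7, HOXB2, HOXB13, HOXC4, HOXC8, HOXC9 and HOXC11 had no summit within 1 kb in any sample. For HOXC4, RefSeq also lists a start farther upstream, and a site with a peak in 6 samples (chr12:54017914-54018316) had its summit 1205 bp past it.

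**Figure D4:**
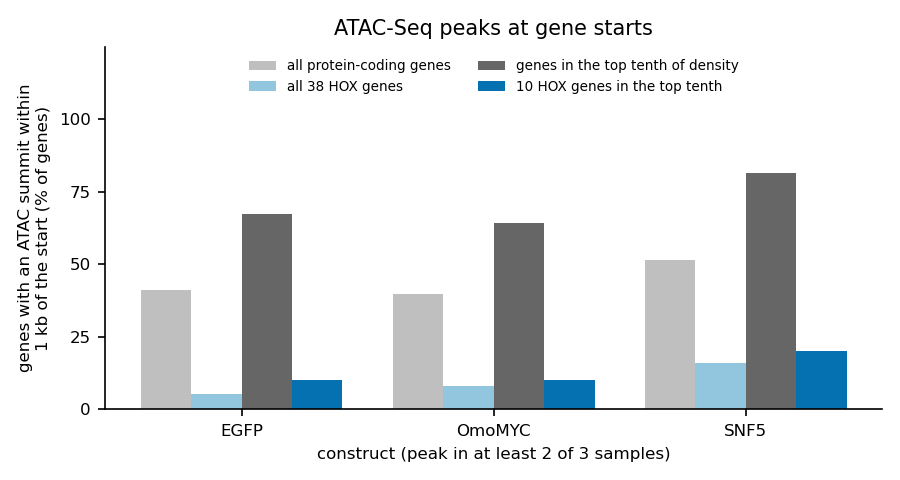
Percent of genes with an ATAC-Seq summit within 1 kb of the start in at least 2 of 3 samples, by construct, for all protein-coding genes, all 38 members, genes in the top 10% of EGFP gene body density and the 10 members among them. The HOX bars (light and dark blue) reach at most 20% and the gray bars run from 39.6% to 81.5%.

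SNF5 samples had more HOX peaks, and more peaks in all. The clusters held 6, 9 and 3 peaks in the EGFP samples, 3, 16 and 7 in OmoMYC and 23, 15 and 9 in SNF5, while the whole lists held 12484, 17817 and 9208, then 7260, 23684 and 12224, then 33596, 26604 and 22722. The SNF5 and EGFP counts met at 9. The difference in means was 9.67 peaks (exact two-sided permutation test, p = 0.2, n = 3 per construct, where 0.1 is the smallest p possible), and 2.67 for OmoMYC (exact permutation p = 0.7). With the 7260 strongest peaks of every sample the SNF5 difference turned to -0.67, with a mean of 2.00 peaks in SNF5 and 2.67 in EGFP.

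By presence in 3 of 3 samples against 0 of 3, no site in the clusters was gained with SNF5, where the background was 9.09% of all sites, and none was lost (0.0075%). With OmoMYC none was gained (0.0275%) and none lost (0.0175%). Without replicate 1, 2 or 3 of the constructs, 0, 4 and 5 sites were gained with SNF5, by presence in 2 of 2 samples against 0 of 2. The share of all sites under that rule was not counted. With at least 2 of 3 samples against 0 of 3, 7 of the 25 sites were gained with SNF5, where the background was 22.3%. In HOXA they were the sites at -5821 bp from HOXA4, 1754 bp from HOXA3 and -3653 bp from HOXA9, in HOXB one between HOXB9 and HOXB13, and in HOXD those at the starts of HOXD8 and HOXD9 and one at 4086 bp from HOXD11. The HOXA3 site lies 121 bp past another HOXA3 start that RefSeq lists. SNF5 replicate 1, which has the longest list, had a peak at all 7, and replicates 2 and 3 at 5 and 2. The site at HOXA13 (chr7:27200085-27200503, summit at -227 bp) had a peak in 1 EGFP, 2 OmoMYC and 2 SNF5 samples. The site at HOXA11 had one in SNF5 replicate 1 alone.

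**Figure D5:**
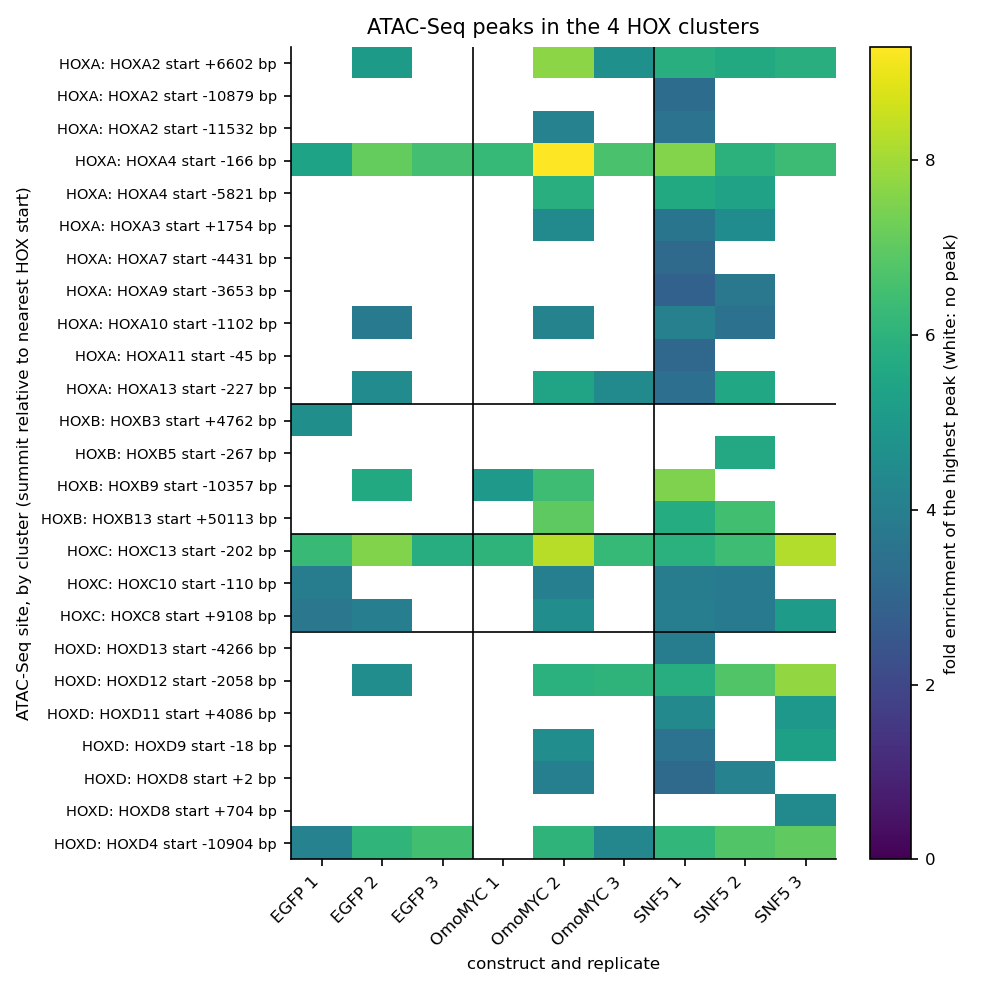
Fold enrichment of the highest ATAC-Seq peak at each of the 25 sites in the clusters (rows, named by the summit's distance in bp from the nearest HOX start, positive downstream) in the 9 samples (columns); white means no peak. The rows at HOXA4 and HOXC13 are filled in all 9 samples, and most rows are filled in SNF5 replicate 1.

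The promoters of 4 HOXA genes are shown because their starts bear on these results: HOXA4 was open in every sample, HOXA9 was the most transcribed member without a peak, HOXA11 rose with OmoMYC, and HOXA13 had a peak in 5 samples. Each is the 250 bases before the start from the RefSeq promoter table (GRCh38.p14, minus strand, 5′ to 3′), with matches to CACGTG and TATAAA in capitals. They lie at chr7:27130758-27131007 (HOXA4), chr7:27165538-27165787 (HOXA9), chr7:27185233-27185482 (HOXA11) and chr7:27200092-27200341 (HOXA13).
HOXA4: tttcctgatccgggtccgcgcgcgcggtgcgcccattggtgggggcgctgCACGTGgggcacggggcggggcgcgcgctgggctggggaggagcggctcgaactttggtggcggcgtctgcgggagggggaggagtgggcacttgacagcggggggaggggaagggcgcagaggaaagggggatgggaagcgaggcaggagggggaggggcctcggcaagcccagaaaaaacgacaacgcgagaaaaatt
HOXA9: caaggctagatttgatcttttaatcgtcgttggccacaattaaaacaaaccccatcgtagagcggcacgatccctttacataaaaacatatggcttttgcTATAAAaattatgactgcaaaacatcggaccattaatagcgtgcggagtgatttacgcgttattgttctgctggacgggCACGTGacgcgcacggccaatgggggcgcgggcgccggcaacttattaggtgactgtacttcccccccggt
HOXA11: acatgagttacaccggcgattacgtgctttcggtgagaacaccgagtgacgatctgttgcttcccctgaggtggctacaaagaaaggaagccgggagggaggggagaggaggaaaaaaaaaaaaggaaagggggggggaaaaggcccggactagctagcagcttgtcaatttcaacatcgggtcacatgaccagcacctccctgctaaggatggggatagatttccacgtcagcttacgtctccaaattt
HOXA13: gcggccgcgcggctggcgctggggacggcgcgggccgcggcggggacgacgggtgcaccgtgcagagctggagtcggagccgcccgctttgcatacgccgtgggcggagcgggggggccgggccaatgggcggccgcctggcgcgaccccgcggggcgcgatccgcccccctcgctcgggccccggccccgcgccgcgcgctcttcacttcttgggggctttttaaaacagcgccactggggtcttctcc

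CACGTG is the E-box that MYC binds with its partner MAX. It began 200 bases before the HOXA4 start and 71 bases before the HOXA9 start, and HOXA9 also had TATAAA 150 bases before. HOXA11 and HOXA13 had none of the motifs searched. Over the 300-base promoters of the table (250 bases before and 50 after the start), CACGTG was found in 9 of 27 entries of 20 members (33.3%), in HOXA3, HOXA4, HOXA7, HOXA9, HOXD1, HOXD3, HOXD10, HOXD11 and HOXD13, and in 7.26% of all 35116 entries. CACGTG holds a CG, and the median number of CG dinucleotides was 22 in the member entries and 14 in all entries. The shares were not adjusted for this. TGANTCA, the AP-1 motif, was in none of the 27 and in 7.71% of all, and TATAAA on either strand was in 5 of 27 and in 11.5% of all. The first of these motifs reads the same on both strands, as does the AP-1 motif. The GC content of the HOXA13 sequence shown was 78.0% and that of HOXA9 48.8%. HOXA5, HOXB2 to HOXB13, HOXC6, HOXC8 to HOXC13 and HOXD9, 18 members in all, had no entry.

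No MYC peak lay in any HOX cluster. The EGFP samples had 940 and 5396 MYC peaks, the SNF5 samples 137 and 27, and the OmoMYC lists held no peak beyond a placeholder line. In each of the 6 samples, 0 peaks fell within the clusters and 0 of the 34 members had a summit within 1 kb of the start. Of all 20367 genes, 4.35% had one in EGFP replicate 1 and 23.1% in replicate 2. The nearest summits in EGFP replicate 2 (GRCh37) were 159 kb from the HOXB window, 206 kb from HOXC, 458 kb from HOXA and 906 kb from HOXD. HOXA11, the member called higher with OmoMYC, thus had no MYC peak called at its start in the control cells. Nor did HOXA4 and HOXA9 with their CACGTG matches. The part of MYC in the HOXA11 change was not tested.

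HOX proteins bind DNA together with PBX, MEIS and PKNOX cofactors. Of 9 such cofactor genes, 7 were tested, and 3 were called in SNF5 and 1 in OmoMYC, where 34.1% and 8.53% of all genes were. In SNF5 PBX3 rose by 0.33 on the log2 scale (SE 0.05, adjusted p = 0.0019) and MEIS2 by 0.24 (SE 0.07, adjusted p = 0.0293), while PKNOX2 fell by 0.29 (SE 0.06, adjusted p = 0.00649). MEIS2 was the most transcribed of them, with a density of 5.05, 5.73 and 6.25 in EGFP and 6.29, 6.76 and 6.998 in SNF5. These ranges did not overlap, and the share of all genes with separate ranges was not counted. In OmoMYC only PKNOX2 was called, with a fall of 0.25 (SE 0.06, adjusted p = 0.0379).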

How the data were processed

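PRO-Seq, ATAC-Seq and MYC ChIP-Seq were made in G401 cells, with replicates as the labels number them. The authors deposited 1 PRO-Seq table (GRCh37) of raw read counts and a gene body signal in reads per bp for each transcript. They trimmed reads with cutadapt, aligned with Bowtie2, removed rRNA reads and mapping quality under 10, and counted with NRSA. The peak lists (ATAC-Seq GRCh38, ChIP-Seq GRCh37), deposited per sample, come from MACS2 and hold fold enrichment as a ratio and p- and q-values as −log10. The peak files hold no depth.

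The transcript with most gene body reads stood for a gene. Counts were scaled by RLE factors from gene bodies, filtered at a mean of 10, and tested genome-wide with edgeR 4.0.16 in R 4.3.3 (quasi-likelihood, construct plus replicate block), with DESeq2 1.42.0 as an alternative. The study's batch adjustment and the data pair the replicates: correlations of deviations from construct means were 0.864 to 0.934 for 9 same-numbered pairs and -0.80 to 0.24 for 27 others. In simulated SNF5 against EGFP counts, 93% of 200 genes changed 2-fold were recovered for gene bodies over 14967 genes, 71% for promoter-proximal reads and 60.5% for the pausing index. Of the calls made there, 7%, 5.33% and 3.2% were false. Smaller changes, such as those of the members called with SNF5, were not simulated. Scipy 1.17.1 gave the permutation tests. Intervals use the fitted SE and degrees of freedom. ATAC-Seq sites are peaks joined at any overlap. GRCh38 starts are those that GENCODE's canonical transcripts carry.

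The members and gene lists were chosen with earlier results of these data known. Named in full were members past the threshold, the most active in each cluster, the steepest neighbor steps and, had there been any, members with a MYC peak.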

Additional observations from a re-analysis of the deposited data

How the results depend on the processing

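Without the replicate block, which pairs the samples, 0 members were called in SNF5 against EGFP, 0 in OmoMYC against EGFP and 0 in SNF5 against OmoMYC for gene bodies, where all genes fell to 1.49%, 0.00664% and 0.498%; promoter-proximal reads and the pausing index stayed at 0. Leaving out 1 replicate of every construct gave 0 to 9, 0 to 4 and 0 to 8 gene body calls. Promoter-proximal calls in SNF5 against OmoMYC were then 0 to 1. For these, the share of all genes was 0.889%, 0.191% and 4.34% without replicate 1, 2 and 3. With only the 2 constructs in the fit, SNF5 against EGFP had 2 gene body calls, where 24.5% of all genes were called. Promoter-proximal SNF5 against OmoMYC had 1 call (HOXA11) with TMM factors, 1 without the filter and 1 with only the 2 constructs. All genes were then at 0.943%, 1.56% and 2.57%. SNF5 against EGFP had 1 promoter-proximal call (HOXB7) with promoter-proximal totals, where 8.83% of all genes were called. In the clusters, ATAC-Seq sites gained with SNF5 numbered 7 at 2 of 3 samples, where 22.3% of all sites were gained. They numbered 1 at a −log10 q of at least 10, and 0 to 5 when a replicate was left out. For the stricter q and the left-out replicates, the share of all sites was not counted. The difference in peaks per sample turned to -0.667 with equal lists. The cause of these changes was not tested. Gene body calls in SNF5 against OmoMYC fell from 3 to 2, without HOXA3, with TMM factors, with DESeq2, without the filter and with only the 2 constructs. All genes were then at 19.3%, 20.2%, 15.5% and 16.6%. The difference in peaks per sample ran from 4.33 to 11.5 for SNF5 and from 0.33 to 5.5 for OmoMYC over the other alternatives that count peaks. DESeq2 was not run for the pausing index. With 3 samples per construct, gene body changes of low genes such as HOXA13, and all HOXD genes outside HOXD3, HOXD8 and HOXD9, are limited by counts, as are promoter-proximal reads in replicate 1; peak lists show presence only.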

Other observations

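Of 15 genes known to set HOX expression, 12 were tested. KMT2A, listed as MLL, was not among them and had no gene body read in any sample. Whether its row could take reads was not tested. In SNF5 6 of the 12 were called and in OmoMYC 1, where 34.1% and 8.53% of all genes were. In SNF5 against EGFP RARB, a retinoic acid receptor and itself a target of retinoic acid, had 41, 93 and 16 gene body reads in EGFP and 92, 359 and 77 in SNF5 (log2 fold change 1.61, SE 0.27, adjusted p = 0.00271 by edgeR). CYP26B1, which degrades retinoic acid, went from 17, 11 and 21 reads to 54, 30 and 93 (1.69, SE 0.47, adjusted p = 0.0239). RARG fell by 0.40 (adjusted p = 0.00445). DOT1L and MEN1, which act with MLL proteins at active HOX genes, fell by 0.61 (adjusted p = 0.00019) and 0.32 (adjusted p = 0.0293), and CTCF, which bounds domains within the clusters, fell by 0.19 (adjusted p = 0.0197). In OmoMYC against EGFP, with the same controls, DOT1L fell by 0.31 (adjusted p = 0.0258) and the other 11 were not called.

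Of 14 genes that flank the clusters, 12 were tested, and 4 were called in SNF5 and 1 in OmoMYC, shares near those of all genes. In SNF5 against EGFP both called neighbors of HOXA rose, SKAP2 by 0.71 on the log2 scale (SE 0.08, adjusted p = 0.000518) and HIBADH by 0.51 (SE 0.05, adjusted p = 0.000229). SKAP1 beside HOXB rose by 0.51 (SE 0.14, adjusted p = 0.0244), and ATP5G2 near HOXC fell by 0.41 (SE 0.09, adjusted p = 0.00908). SKAP2 also rose with OmoMYC (0.60, SE 0.08, adjusted p = 0.0147). None of the 9 HOXA members tested passed in SNF5 against EGFP.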
